A study of Homo sapiens with 12 samples.

Results

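The response to Mina53 depletion averaged over a p53-/- and a p53+/+ line of HCT116 cells was measured in 12 libraries, all 12 of the series. Every library entered by its label, 6 depleted libraries against 6 scrambled ones, and the line was held constant as a blocking factor. HCT116 is an established human colorectal cancer cell line. Each of 4 groups had 3 libraries. In p53-/- cells these were Mina53 depletion and its scrambled control, and in p53+/+ cells likewise. Poly(A)-selected RNA was sequenced on an Illumina HiSeq, per the series design text. The sources used here do not give the depletion reagent, when cells were collected, or whether replicate libraries came from separate cultures. The p-values thus measure library-to-library spread, which may be technical. Those of the common effect also take in the difference of the depletion effect between the lines, which that fit leaves in its residual. Each genotype is represented by 1 line, so genotype and line cannot be told apart. An effect of Mina53 loss and any other effect of the depletion reagent cannot be told apart either.

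Mina53 is the protein of RIOX2, a JmjC-domain oxygenase of the nucleolus and nucleus that uses 2-oxoglutarate and iron. It hydroxylates a histidine of the ribosomal protein RPL27A, and its relative RIOX1 hydroxylates a histidine of RPL8. RIOX2 was first described as a gene induced by MYC and is linked to cell proliferation. The transcription factor p53, absent as a functional protein from the p53-/- line, drives arrest and death genes such as CDKN1A, so an average over both lines describes what depleted cells share with and without it.

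RIOX2 fell in both lines. It was at 2.11, 2.21 and 1.75 FPKM in the p53-/- depleted libraries, against 9.31, 8.89 and 9.07 FPKM in the p53-/- scrambled ones. It was at 3.04, 2.63 and 2.48 FPKM in the p53+/+ depleted libraries, against 7.44, 7.27 and 7.77 FPKM in the p53+/+ scrambled ones, and the groups did not overlap in either line. On average the depleted libraries held 22.3% of the scrambled level in p53-/- cells and 36.3% in p53+/+ cells, where FPKM is a level scaled to transcript length and library size. The common effect, the mean log2(FPKM + 1) difference between depleted and scrambled libraries with the line as a block, was -1.47 (95% interval -1.67 to -1.27, adjusted p = 3.85e-08) by limma, with adjustment over all 13728 genes tested. RIOX1 rose, with levels of 5.41 ± 0.516 against 3.96 ± 0.474 FPKM in p53-/- cells and 3.36 ± 0.259 against 1.94 ± 0.0832 FPKM in p53+/+ cells (depleted against scrambled, SD, n = 3 per group here and below), a common effect of 0.47 (95% interval 0.33 to 0.61, adjusted p = 3.90e-05). RPL27A, the ribosomal substrate of Mina53, fell by 0.22 (adjusted p = 4.30e-05) with 104 ± 3.01 against 117 ± 3.02 FPKM in p53-/- cells and 129 ± 1.37 against 155 ± 2.57 FPKM in p53+/+ cells. That fall was close to the median common effect of -0.20 over the 79 ribosomal protein genes measured.

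Library totals lay between 348822 and 372821 FPKM, and depth is unknown because the values are not counts. Of 12 colon epithelial markers, 7 passed the filter of at least 1 FPKM in at least 3 libraries. EPCAM, KRT8, KRT18 and KRT19 were high, KRT20 stayed at or below 1.95 FPKM, and VIL1, LGALS4, CEACAM5 and CEACAM6 stayed at or below 0.169 FPKM in every library. The 11 markers in the table summed to 1861 to 1951 FPKM in p53-/- depleted and 1895 to 2046 FPKM in p53-/- scrambled libraries, and to 2087 to 2283 FPKM in p53+/+ depleted and 2380.3 to 2397 FPKM in p53+/+ scrambled libraries. Of the 7, 2 rose and 4 fell by the common effect. There was 1 rise without p53-/- depleted replicate 3 or p53-/- scrambled replicate 2, and there were 2 falls with mitochondrial transcripts left out. KRT18 fell with 248 against 465 FPKM in p53-/- cells and 348 against 519 FPKM in p53+/+ cells. KRT19 went the other way, with 646 against 466 FPKM in p53-/- cells and 767 against 632 FPKM in p53+/+ cells. No immune marker passed the filter, and their sum was at most 1.94 FPKM in any library. Among fibroblast markers only COL1A1 passed, and it rose with 11.7 against 7.22 FPKM in p53-/- cells and 10.5 against 6.93 FPKM in p53+/+ cells, while COL1A2, COL3A1, PDGFRA, PDGFRB, THY1, FAP and POSTN were at or below 0.153 FPKM in every library. Of the erythroid markers 2 passed the filter and neither was called. Of the markers of liver and kidney lines PAX2 and PAX8 passed, with common effects of -0.21 and -0.14 at levels of at most 2.36 FPKM.

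Depleted and scrambled libraries differed widely in both lines. Of 13728 genes, 8414 passed an adjusted p of 0.05 for the common effect, which is 61.3% of genes tested, with 4045 higher (29.5%) and 4369 lower (31.8%) in depleted libraries. The median common effect over all genes was -0.01. Most changes were small, since 128 genes rose (0.932%) and 158 fell (1.15%) by at least 1 on the log2 scale. Of the log2 sum of squares over all genes, 33.8% lay between depleted and scrambled libraries, 49.1% between the lines, 6.28% in the difference of the depletion effect between the lines, and 10.8% among libraries within groups. A share near 29.5% higher or 31.8% lower in any gene group below is the background. Bulk RNA cannot tell a change in every cell from a change in the share of cells in a given state.

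The average covers effects of unequal size in the lines. Over all 13728 genes tested, 10194 (74.3%) had the same sign in p53-/- and p53+/+ cells. A fit with the line as a block calls genes with like effects in both lines more readily, so shares among its 8414 calls describe that choice and do not measure likeness of the lines. Of the 8414, 5371 (63.8%) were called in both lines in the same direction when each line was tested. Tested alone, p53-/- cells had 28.9% of genes higher and 29.9% lower after depletion, and p53+/+ cells 28.5% higher and 32.2% lower. In 5769 of the 8414 (68.6%) the 3 depleted libraries lay wholly on the same side of the 3 scrambled ones in both lines, against 20.0% of all genes higher and 22.1% lower in that way. The depletion effect itself differed between the lines, by the limma test of that difference, for 2832 of the 8414 (33.7%), close to the 32.9% of all genes tested (16.7% with a higher effect in p53-/- cells and 16.2% with a lower one). Among genes that rose, 565 rose more and 784 rose less in p53-/- than in p53+/+ cells, and among those that fell, 666 fell more deeply and 817 less deeply. For 1460 (17.4%, against 14.5% of all genes) the 95% interval of the difference lay within 0.25 of 0, and these are called evenly shared here. Of the 286 genes with a common change of at least 1, 22 were evenly shared, and for 159 (55.6%) the effect differed between the lines.

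**Figure D1:**
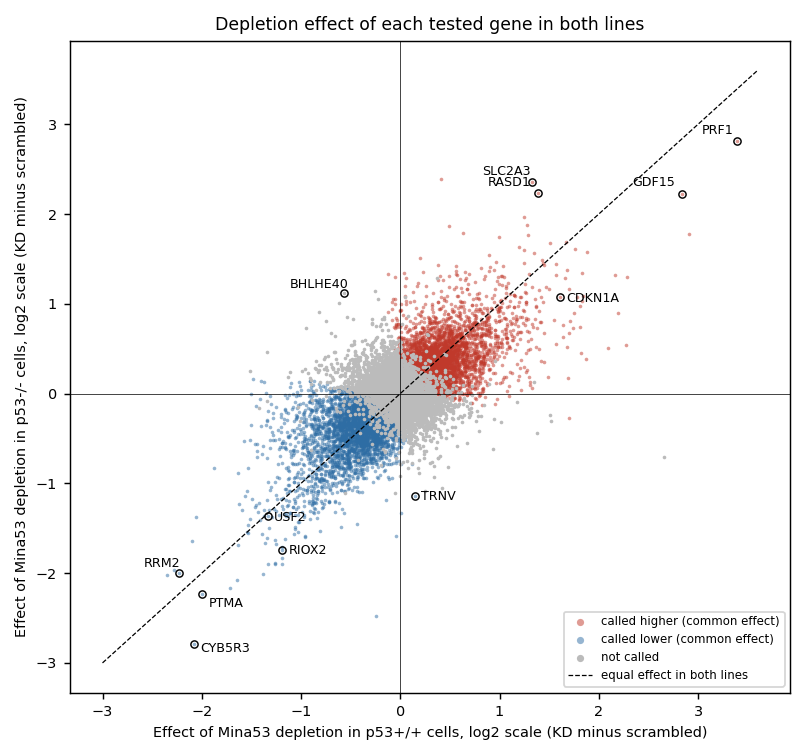
Depletion effect (depleted minus scrambled, log2(FPKM + 1)) in p53-/- cells plotted against that in p53+/+ cells for the 13728 genes tested, with genes called for the common effect in colour and some named genes ringed. Points spread around the diagonal on both sides, and 74.3% of all genes have the same sign in both lines.

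Of the genes named by rule PRF1 rose most. It encodes perforin, the pore-forming protein of cytotoxic lymphocytes. PRF1 was at 16.7, 17.2 and 17.1 FPKM in the p53-/- depleted libraries, against 1.499, 1.48 and 1.70 FPKM in the p53-/- scrambled ones. It was at 51.7, 54.0 and 54.8 FPKM in the p53+/+ depleted libraries, against 4.27, 4.35 and 3.98 FPKM in the p53+/+ scrambled ones. Its common effect was 3.10 (95% interval 2.91 to 3.30, adjusted p = 7.80e-11), and the groups did not overlap in either line, while the lymphocyte and other immune markers stayed at or below 0.636 FPKM each. GDF15, a secreted stress cytokine of the TGF-beta superfamily, was at 569, 549 and 604 FPKM in the p53-/- depleted libraries, against 132, 118 and 115 FPKM in the p53-/- scrambled ones. Its values were 1004, 1083 and 1158 FPKM in the p53+/+ depleted libraries, against 149, 159 and 145 FPKM in the p53+/+ scrambled ones. The common effect of GDF15 was 2.53 (95% interval 2.32 to 2.74, adjusted p = 6.77e-10), and it was smaller in p53-/- cells, with a difference (p53-/- minus p53+/+) of -0.60 (adjusted p = 3.65e-04). MIR3189, with a common effect of 2.34, lies inside GDF15, so its reads cannot be told apart from those of its host.

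Transporters, signalling proteins and surface proteins were among the other named rises. SLC2A3, a glucose transporter of high affinity, was at 11.1 ± 0.628 against 1.35 ± 0.0572 FPKM in p53-/- cells and 2.67 ± 0.190 against 0.464 ± 0.115 FPKM in p53+/+ cells, and its common effect was 1.84 (95% interval 1.51 to 2.18, adjusted p = 4.87e-07). RASD1, a Ras-related protein induced by dexamethasone, was close to 0 without depletion, with 5.37 against 0.350 FPKM in p53-/- cells and 1.94 against 0.126 FPKM in p53+/+ cells. AQP3, a channel for water and glycerol, had 13.9 against 3.96 FPKM in p53-/- cells and 25.1 against 6.07 FPKM in p53+/+ cells, a common effect of 1.73. SEMA7A, a membrane-anchored semaphorin, gave 1.68 and IQGAP2, a scaffold of the actin cytoskeleton, gave 1.68. The IQGAP2 effects in p53-/- and p53+/+ cells were 1.69 and 1.67, the only evenly shared ones among the 12 named rises. HSPB8, a small heat shock protein, rose by 1.602 and ANKRD46 by 1.596. TERC, the RNA template of telomerase, rose by 1.79 with 2.88 against 0.579 FPKM in p53-/- cells and 15.8 against 2.45 FPKM in p53+/+ cells, and it is not a typical polyadenylated RNA.

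**Figure D2:**
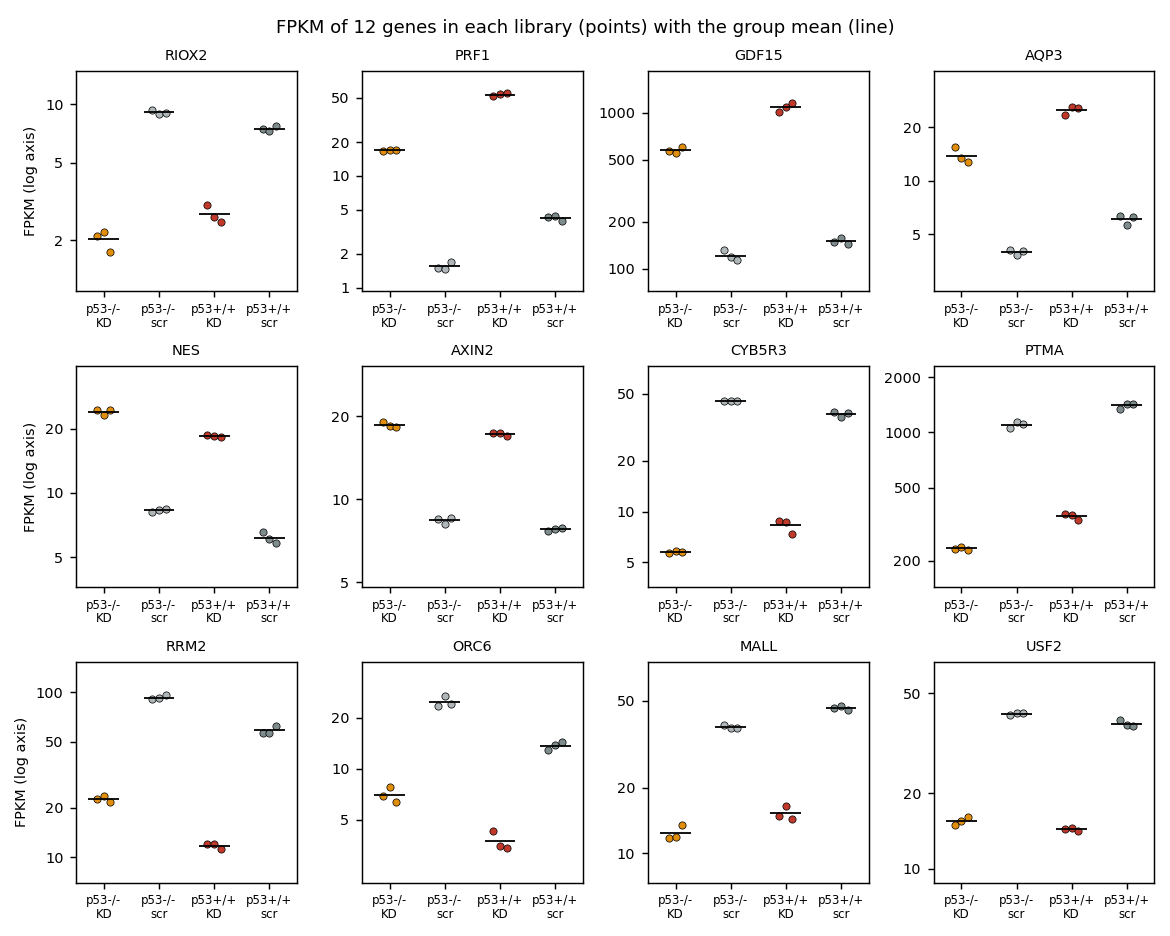
FPKM of named genes in each of the 12 libraries on a log axis, with a bar at each group mean. Depleted and scrambled libraries do not overlap in either line for RIOX2, PRF1 and GDF15.

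Among the 12 named falls, CYB5R3 came first and PTMA had the highest level. CYB5R3, a reductase that passes electrons to cytochrome b5, was at 5.70, 5.799 and 5.71 FPKM in the p53-/- depleted libraries, against 45.6, 45.3 and 45.3 FPKM in the p53-/- scrambled ones. It was at 8.81, 8.61 and 7.405 FPKM in the p53+/+ depleted libraries, against 39.2, 36.7 and 38.4 FPKM in the p53+/+ scrambled ones. Its common effect of -2.43 (95% interval -2.66 to -2.20, adjusted p = 2.02e-09) was a deeper fall than that of RIOX2. On the log2(FPKM + 1) scale 22 called genes, CYB5R3 among them, fell more than RIOX2. That scale understates falls of low genes such as RIOX2, so the count is not a ranking by ratio. ATP5MC2, 1 of the 22, held 26.2% of the scrambled level in p53-/- and 38.8% in p53+/+ cells. RIOX2 held 22.3% and 36.3%. PTMA, prothymosin alpha, an acidic nuclear protein that binds histones, was at 232, 239 and 230.2 FPKM in the p53-/- depleted libraries, against 1057, 1136 and 1113 FPKM in the p53-/- scrambled ones. It had 361, 357 and 335 FPKM in the p53+/+ depleted libraries, against 1344, 1434 and 1425 FPKM in the p53+/+ scrambled ones, again without overlap. The common effect of PTMA was -2.11 (95% interval -2.21 to -2.02, adjusted p = 1.37e-11). PTMAP2, PTMAP5 and PTMAP4, pseudogenes of PTMA in RefSeq, fell by 2.18, 2.12 and 1.72, and reads of such copies may have been divided between them and PTMA, so they are not separate results. The same holds for ANXA2P2 (-1.86) beside ANXA2, and for RPL12P16, whose -1.87 had a 95% interval of -2.82 to -0.92.

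RRM2 and ORC6, both needed for DNA synthesis, were also among the 12 largest falls. RRM2, the small subunit of ribonucleotide reductase, was at 22.4, 23.5 and 21.5 FPKM in the p53-/- depleted libraries, against 90.7, 91.6 and 95.6 FPKM in the p53-/- scrambled ones. Its values were 11.97, 11.98 and 11.3 FPKM in the p53+/+ depleted libraries, against 57.0, 56.9 and 62.4 FPKM in the p53+/+ scrambled ones. RRM2 thus fell by 2.11 (adjusted p = 1.63e-11), and ORC6, a subunit of the origin recognition complex, fell by 1.66 with 7.02 ± 0.734 against 24.8 ± 1.74 FPKM in p53-/- cells and 3.72 ± 0.472 against 13.7 ± 0.730 FPKM in p53+/+ cells. ANXA2, a calcium-dependent membrane-binding protein that is part of a plasminogen receptor, averaged 154 ± 8.26 against 693 ± 25.8 FPKM in p53-/- cells and 206 ± 1.999 against 679 ± 10.1 FPKM in p53+/+ cells, a common effect of -1.94 (95% interval -2.09 to -1.79, adjusted p = 4.79e-10). SLC9A3R2, a scaffold under the plasma membrane, fell by 1.70, and ATP5MC2, a gene for subunit c of ATP synthase, fell by 1.62 with 28.3 against 108 FPKM in p53-/- cells and 29.7 against 76.6 FPKM in p53+/+ cells.

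A further 10 genes were named because their effects were nearly equal in the lines. NES, the intermediate filament protein nestin, was at 24.5, 23.2 and 24.5 FPKM in the p53-/- depleted libraries, against 8.19, 8.29 and 8.41 FPKM in the p53-/- scrambled ones. It was at 18.6, 18.5 and 18.2 FPKM in the p53+/+ depleted libraries, against 6.57, 6.10 and 5.803 FPKM in the p53+/+ scrambled ones. The effects of NES in p53-/- and p53+/+ cells were 1.43 and 1.45, and the 95% interval of their difference was -0.15 to 0.12. FAM222B rose by 1.31, MAP1B, which binds microtubules, by 1.24, and ARHGEF2, a guanine nucleotide exchange factor held on microtubules, by 1.12. AXIN2, a scaffold of the beta-catenin destruction complex and a WNT feedback gene, averaged 18.6 ± 0.365 against 8.39 ± 0.221 FPKM in p53-/- cells and 17.2 ± 0.259 against 7.76 ± 0.0884 FPKM in p53+/+ cells, with effects of 1.06 in p53-/- and 1.06 in p53+/+ cells. Among the falls, MALL, a membrane proteolipid, was at 11.8, 11.9 and 13.4 FPKM in the p53-/- depleted libraries, against 38.9, 37.3 and 37.7 FPKM in the p53-/- scrambled ones. Its values were 14.8, 16.5 and 14.4 FPKM in the p53+/+ depleted libraries, against 46.4, 47.1 and 45.3 FPKM in the p53+/+ scrambled ones, and its effect was -1.54 in p53-/- and -1.54 in p53+/+ cells. GPD2, the mitochondrial glycerol-3-phosphate dehydrogenase, fell by 1.41, and USF2, a transcription factor that binds E-boxes, fell by 1.35. NFKB1, the precursor of the NF-kB subunit p50, fell by 1.31 with 3.53 ± 0.215 against 10.1 ± 0.223 FPKM in p53-/- cells and 2.51 ± 0.216 against 7.77 ± 0.226 FPKM in p53+/+ cells, and PPP1R8, a nuclear inhibitor of protein phosphatase 1, fell by 1.28. The intervals of the differences for MAP1B, GPD2, NFKB1 and PPP1R8 passed 0.25 under at least 1 other setting, so their evenness is less firm than that of the other 6.

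**Figure D3:**
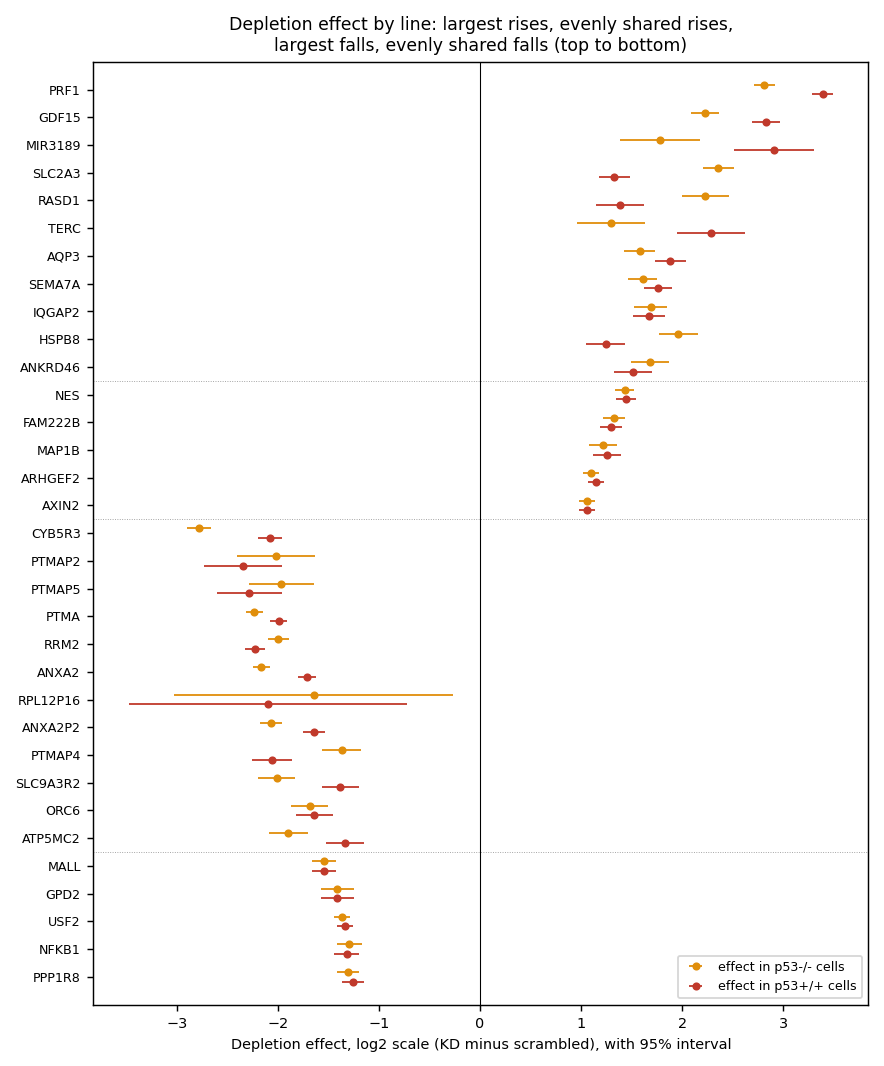
Depletion effect on the log2(FPKM + 1) scale with its 95% interval for the genes named by rule, in p53-/- cells (upper) and p53+/+ cells (lower). The points of the lines lie one above the other for NES, AXIN2, MALL and USF2 and apart for SLC2A3, PRF1 and CYB5R3.

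Genes of the G1/S transition and DNA replication fell together. Of 40 measured, 39 fell and 1 did not pass, and the median common effect was -0.62 against -0.01 over all genes. In 34 of them the depleted libraries lay below the scrambled ones in both lines, against 22.1% of all genes. The median was -0.46 in p53-/- and -0.85 in p53+/+ cells, and for 30 the fall was smaller in p53-/- cells by the test of the difference, against 16.7% of all genes with a higher effect there. After RRM2 and ORC6 the members with the smallest p were LIG1 and MCM2. LIG1, the ligase that joins Okazaki fragments, averaged 10.3 ± 0.827 against 20.8 ± 0.197 FPKM in p53-/- cells and 8.62 ± 0.662 against 17.7 ± 0.923 FPKM in p53+/+ cells, and its effects of -0.95 in p53-/- and -0.96 in p53+/+ cells were evenly shared. MCM2, a subunit of the replicative helicase, had 32.5 ± 1.21 against 65.3 ± 1.49 FPKM in p53-/- cells and 17.8 ± 0.329 against 46.5 ± 2.19 FPKM in p53+/+ cells, a common effect of -1.16 (95% interval -1.29 to -1.03, adjusted p = 7.01e-09).

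Genes of G2/M and mitosis fell on average but unevenly. Of 35 measured, 29 fell and 6 did not pass (median -0.57). The line medians were -0.07 in p53-/- and -1.04 in p53+/+ cells. Tested alone, p53-/- cells had 5 members higher and 15 lower, against 28.9% and 29.9% of all genes. In p53+/+ cells all 35 were lower, against 32.2% of all genes. The effect was higher in p53-/- cells by the test of the difference for all 35, against 16.7% of all genes, so the average lies between unlike values. The members below have the smallest p for the common effect, a choice that favours like effects in both lines. CDC20, an activator of the anaphase-promoting complex, was among those that fell in both lines, with 124 against 178 FPKM in p53-/- cells and 50.2 against 115 FPKM in p53+/+ cells. BIRC5, the chromosomal passenger survivin, had 40.0 against 56.4 FPKM in p53-/- cells and 17.4 against 39.2 FPKM in p53+/+ cells and CCNB1, cyclin B1, had 89.0 against 113 FPKM in p53-/- cells and 37.9 against 71.4 FPKM in p53+/+ cells. The mitotic kinase gene TTK had 10.9 against 15.0 FPKM in p53-/- cells and 5.35 against 14.6 FPKM in p53+/+ cells.

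Shares of short words in the proximal promoters of these groups are given for all measured members with a promoter. Windows are shown only for some members called lower by the common effect whose promoter held the word. RRM2, ORC6, MCM2, BIRC5, CCNB1 and TTK, described above, gave no window. MCM6 and CDC20 held 2 matches each, of which the first is shown. In RefSeq promoters of GRCh38.p14, 250 bases before to 50 after the gene start, the E2F-type words TTTCCCGC or TTTGGCGC, on either strand, were found in 18 of 35 G1/S genes with a promoter in the table (51.4%) and in 4.80% of the 9934 tested genes with one, and in 2.75% of all 27305 promoters. The word TTTGAA of the cell cycle homology region (CHR), on either strand, was found in 20 of 29 G2/M genes (69.0%), in 13.1% of tested genes and in 18.2% of all promoters. The word CCAAT, on either strand, was found in both groups, in 57.1% of G1/S and 86.2% of G2/M genes, against 43.2% of tested genes and 39.7% of all promoters. A match is a run of letters and not a shown binding site. The matched word is in capitals in the windows below, each read along the gene's strand, at chr19:48170441-48170468 (- strand) for LIG1, chr2:135876578-135876605 (- strand) for MCM6, chr6:52284899-52284926 (- strand) for MCM3, chr1:43358793-43358818 (+ strand) for CDC20, chr10:92593092-92593117 (+ strand) for KIF11 and chr15:40161036-40161061 (+ strand) for BUB1B. The MCM genes encode subunits of the replicative helicase, KIF11 a spindle motor and BUB1B a spindle checkpoint kinase.
LIG1: cttcacccctTTTCCCGCcctcctccca
MCM6: gggctttgcaTTTGGCGCgaaatccctt
MCM3: ggatggtacgTTTCCCGCcaccgcgggg
CDC20: tctcgtacccTTCAAAtcgcgctccg
KIF11: ctgtctctttTTCAAAttgaggcgcc
BUB1B: gaccgttaaaTTTGAAacttggcggc

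Most DNA repair genes fell as well. Of 30, 23 fell and 7 did not pass (median -0.37). The line medians were -0.21 in p53-/- and -0.48 in p53+/+ cells. Tested alone, p53-/- cells had 2 members higher and 17 lower, against 28.9% and 29.9% of all genes. In p53+/+ cells 25 were lower, against 32.2%. The effect was higher in p53-/- cells by the test of the difference for 20 of the 30, against 16.7% of all genes, and lower for 1. UNG, the uracil-DNA glycosylase, had the smallest p, with 16.1 ± 0.159 against 49.5 ± 1.08 FPKM in p53-/- cells and 14.4 ± 0.234 against 39.5 ± 2.43 FPKM in p53+/+ cells and a common effect of -1.48 (95% interval -1.57 to -1.39, adjusted p = 6.23e-11). BRCA1, of homologous recombination, had 4.71 against 8.76 FPKM in p53-/- cells and 2.06 against 5.23 FPKM in p53+/+ cells, and RAD54L, a DNA translocase of the same pathway, had 6.30 against 10.4 FPKM in p53-/- cells and 2.83 against 6.91 FPKM in p53+/+ cells. APEX1, the main endonuclease for abasic sites, fell by 0.41.

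Genes of the ribosome and of MYC-driven growth were mostly lower by small amounts. Of 79 ribosomal protein genes measured, 61 fell and 18 did not pass, with a median of -0.20. With mitochondrial transcripts left out of the totals 51 fell and 2 rose. The line medians were -0.12 in p53-/- and -0.27 in p53+/+ cells. The effect was higher in p53-/- cells by the test of the difference for 38 of the 79, against 16.7% of all genes. It was lower for 1, against 16.2%. RPL7A stood apart, at 348, 348 and 362 FPKM in the p53-/- depleted libraries, against 846, 823 and 798 FPKM in the p53-/- scrambled ones. RPL7A was at 451, 468 and 468 FPKM in the p53+/+ depleted libraries, against 1265, 1242 and 1209 FPKM in the p53+/+ scrambled ones, and its common effect was -1.32 (95% interval -1.40 to -1.23, adjusted p = 7.80e-11). RPL8, the substrate of RIOX1, fell by 0.48 with 1149 against 1593 FPKM in p53-/- cells and 1510.3 against 2126 FPKM in p53+/+ cells, and RPL10A and RPS10 fell by 0.51 and 0.50. Ribosomal protein genes have many near-identical processed copies, and the sources used here do not say how reads were divided between copies. Of 40 MYC target genes, 3 rose, 24 fell and 13 did not pass (median -0.28), and 6 rose with the average of group means. Tested alone, p53-/- cells had 1 member higher and 30 lower, against 28.9% and 29.9% of all genes. In p53+/+ cells 9 were higher and 22 lower, against 28.5% and 32.2%. The effect was lower in p53-/- cells by the test of the difference for 19 of the 40, against 16.2% of all genes, and higher for 4. NCL, the nucleolar protein nucleolin, was at 102 ± 0.205 against 218 ± 3.61 FPKM in p53-/- cells and 122 ± 6.09 against 229 ± 6.60 FPKM in p53+/+ cells, a common effect of -0.998 (95% interval -1.08 to -0.91, adjusted p = 9.91e-10). TCOF1, the treacle protein of ribosomal RNA synthesis, averaged 17.8 against 34.9 FPKM in p53-/- cells and 16.0 against 32.7 FPKM in p53+/+ cells, and CDK4, the G1 cyclin-dependent kinase, 53.2 against 86.4 FPKM in p53-/- cells and 40.2 against 62.6 FPKM in p53+/+ cells, and both falls were evenly shared.

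Chaperones and translation factors moved in both directions. Of 23 genes of the cytosolic chaperonin and heat shock group, 10 rose, 5 fell and 8 did not pass (median 0.07), and the 4 members with the smallest p all fell. HSP90AB1, the constitutive cytosolic HSP90, was at 532, 533 and 519 FPKM in the p53-/- depleted libraries, against 1166, 1199.6 and 1211 FPKM in the p53-/- scrambled ones. Its values were 453, 445 and 436 FPKM in the p53+/+ depleted libraries, against 1052, 1033 and 1081 FPKM in the p53+/+ scrambled ones, and its common effect was -1.21 (95% interval -1.27 to -1.15, adjusted p = 1.37e-11). HSPD1, the mitochondrial chaperonin HSP60, fell by 1.39 with 117 against 362 FPKM in p53-/- cells and 183 against 411 FPKM in p53+/+ cells, while its partner HSPE1 fell by 0.50 and the chaperonin subunit CCT4 by 0.37. Of 35 translation factors, 6 rose, 19 fell and 10 did not pass, and with mitochondrial transcripts left out 12 rose and 14 fell. EIF4H, a cofactor of the helicase EIF4A, fell by 1.24 with 56.8 against 147 FPKM in p53-/- cells and 72.3 against 159 FPKM in p53+/+ cells. EIF3G and EIF3A, subunits of EIF3, fell by 0.69 and 0.71, whereas EIF4G1, the scaffold of the cap-binding complex, rose by 0.53 with 193 against 139 FPKM in p53-/- cells and 126 against 83.3 FPKM in p53+/+ cells.

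Transcripts of the mitochondrial genome took a larger share of the total after depletion in both lines. The 13 protein-coding genes together made up 14.1% ± 0.284 of library FPKM in p53-/- depleted and 10.5% ± 0.476 in p53-/- scrambled libraries, and 18.6% ± 0.737 in p53+/+ depleted and 14.1% ± 0.270 in p53+/+ scrambled libraries (SD, n = 3). The average difference was 4.07 percentage points (two-sided exact permutation test within lines, p = 0.005, the smallest its 400 arrangements allow). Of the 13 genes, 11 rose and 2 did not pass (median 0.40). CYTB, the mitochondrially encoded subunit of complex III, averaged 2814 ± 12.2 against 1714 ± 44.7 FPKM in p53-/- cells and 3876 ± 32.5 against 2186 ± 4.31 FPKM in p53+/+ cells, and COX2, a mitochondrially encoded subunit of complex IV, 6806 ± 264 against 4365 ± 229 FPKM in p53-/- cells and 11417 ± 276 against 7669.7 ± 261 FPKM in p53+/+ cells. Of 37 nuclear genes of oxidative phosphorylation, 11 rose, 11 fell and 15 did not pass, and with mitochondrial transcripts left out of the totals 17 rose and 6 fell. Besides ATP5MC2, COX5B of complex IV and UQCRC2 of complex III fell by 0.41 and 0.33, and NDUFA2 of complex I rose by 0.41. FPKM are shares of a total, so a larger share for some genes lowers the others. With mitochondrial transcripts left out of the totals 4822 genes rose and 3625 fell, with 57.1% of calls higher against 48.1%.

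**Figure D4:**
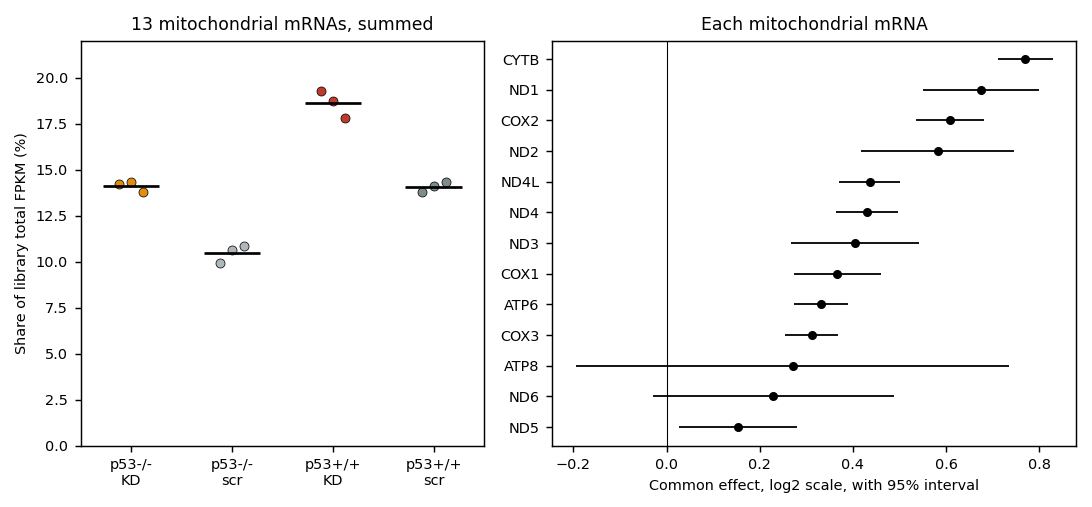
Share of library FPKM from the 13 mitochondrial protein-coding genes (left, in percent, a point per library and a line at the group mean), and the common effect of each gene on the log2(FPKM + 1) scale with its 95% interval (right). Depleted libraries average 14.1% against 10.5% for scrambled ones in p53-/- cells, and 18.6% against 14.1% in p53+/+ cells.

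Genes activated by p53 rose on average, with larger effects in p53+/+ cells. Of 37 measured, 23 rose, 4 fell and 10 did not pass (median 0.33). The line medians were 0.07 in p53-/- and 0.57 in p53+/+ cells, and 28 of the 37 had a lower effect in p53-/- cells by the test of the difference, against 16.2% of all genes. Tested alone, p53-/- cells had 15 members higher and 9 lower, against 28.9% and 29.9% of all genes. In p53+/+ cells 29 were higher and 1 lower, against 28.5% and 32.2%. After GDF15, those with the smallest p for the common effect, which favours like effects, rose in both lines. CDKN1A, the cyclin-dependent kinase inhibitor p21, was at 29.2, 31.9 and 32.5 FPKM in the p53-/- depleted libraries, against 14.9, 14.04 and 13.9 FPKM in the p53-/- scrambled ones. Its level was far higher in p53+/+ cells, at 362, 369 and 369 FPKM in the p53+/+ depleted libraries, against 118, 122 and 119 FPKM in the p53+/+ scrambled ones. Its common effect was 1.34 (95% interval 1.16 to 1.52, adjusted p = 3.08e-08). BTG2, an antiproliferative gene, averaged 6.68 ± 0.315 against 2.45 ± 0.0551 FPKM in p53-/- cells and 36.9 ± 0.341 against 13.4 ± 0.625 FPKM in p53+/+ cells, and TNFRSF10A, a death receptor for TRAIL, 23.9 against 14.8 FPKM in p53-/- cells and 24.1 against 12.6 FPKM in p53+/+ cells. Of 20 apoptosis regulators, 12 rose, 2 fell and 6 did not pass (median 0.26), and 4 fell with no filter on low values. BIK and BMF, which promote death, rose by 1.47 and 0.67, as did MCL1, which prevents it, by 0.72 with 69.5 against 37.8 FPKM in p53-/- cells and 51.4 against 33.9 FPKM in p53+/+ cells, while the survival gene BCL2L2 fell by 0.53.

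Interferon response genes rose on average, with larger effects in p53-/- cells. Of 27 measured, 23 rose and 4 did not pass (median 0.54), with medians of 0.91 in p53-/- and 0.08 in p53+/+ cells and a higher effect in p53-/- cells for 25 by the test of the difference, against 16.7% of all genes. Tested alone, all 27 were higher in p53-/- cells, against 28.9% of all genes. In p53+/+ cells 11 were higher and 3 lower, against 28.5% and 32.2%. The members that led the average rose in both lines. IFI6, an interferon-induced protein, was at 96.1 ± 8.39 against 27.9 ± 0.698 FPKM in p53-/- cells and 24.0 ± 1.296 against 11.6 ± 0.784 FPKM in p53+/+ cells, STAT2, which transmits the interferon signal, rose by 0.60, and the exonuclease gene ISG20 rose by 0.95. Of 13 NF-kB and chemokine genes, 7 rose, 1 fell and 5 did not pass, and 2 fell with the average of group means. The lines differed here, with 10 up and 1 down (median 0.41) in p53-/- cells and 5 up and 4 down (median -0.03) in p53+/+ cells. The effect was higher in p53-/- cells for 9 of the 13 by the test of the difference, against 16.7% of all genes. NFKB1, described above, was the one that fell, and IER3, an early response gene, rose by 0.35 with 211 against 167 FPKM in p53-/- cells and 234 against 182 FPKM in p53+/+ cells. TNFAIP2 and NFKBIE, an inhibitor of NF-kB, rose by 0.59 and 0.29.

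Stress and metabolic genes split. Of 21 genes of the amino acid stress response, 3 rose, 16 fell and 2 did not pass (median -0.48). ATF3, a stress-induced transcription factor, was among the 3 that rose, with 24.4 ± 0.785 against 6.47 ± 0.467 FPKM in p53-/- cells and 12.5 ± 0.457 against 4.53 ± 0.349 FPKM in p53+/+ cells and a common effect of 1.53 (95% interval 1.35 to 1.70, adjusted p = 9.49e-09). MTHFD2, of mitochondrial folate metabolism, PHGDH, of serine synthesis, and STC2, a secreted glycoprotein, fell by 0.98, 0.52 and 0.77. Of 27 hypoxia and glycolysis genes, 4 rose, 14 fell and 9 did not pass, 7 rose with the average of group means, and the medians were 0.04 in p53-/- and -0.65 in p53+/+ cells. VEGFA, the vascular growth factor, fell in both with 7.89 ± 0.627 against 19.1 ± 0.475 FPKM in p53-/- cells and 5.94 ± 0.170 against 18.5 ± 0.368 FPKM in p53+/+ cells, HK2, a hexokinase, had 6.33 against 9.83 FPKM in p53-/- cells and 9.50 against 27.9 FPKM in p53+/+ cells, and TPI1, triosephosphate isomerase, fell by 0.77. Of 28 lysosome and autophagy genes, 15 rose, 4 fell and 9 did not pass (median 0.23), and with mitochondrial transcripts left out of the totals 2 fell. MAP1LC3B, the autophagosome protein LC3B, was at 89.1 ± 4.71 against 41.7 ± 1.14 FPKM in p53-/- cells and 69.8 ± 2.19 against 29.4 ± 1.495 FPKM in p53+/+ cells, a common effect of 1.15 (95% interval 1.06 to 1.24, adjusted p = 4.61e-10), and the autophagy receptor gene SQSTM1, GABARAPL1, a relative of LC3, and NPC1, a lysosomal cholesterol exporter, rose by 0.85, 0.75 and 0.60.

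Immediate early, matrix and WNT genes rose more often than they fell. Of 25 immediate early and ERK feedback genes, 14 rose, 4 fell and 7 did not pass (median 0.46). JUN, an AP-1 subunit, rose by 1.14 with 43.7 against 21.1 FPKM in p53-/- cells and 19.1 against 7.37 FPKM in p53+/+ cells, DUSP5, a phosphatase of ERK, rose by 1.58 with 69.5 against 18.2 FPKM in p53-/- cells and 71.8 against 29.0 FPKM in p53+/+ cells, and FOSL1, another AP-1 subunit, fell by 1.35 with 25.8 against 57.9 FPKM in p53-/- cells and 20.8 against 63.1 FPKM in p53+/+ cells. Of 16 TGF-beta response and matrix genes, 13 rose, 2 fell and 1 did not pass (median 0.53), and 1 fell when p53+/+ depleted replicate 1, p53+/+ scrambled replicate 1, p53-/- depleted replicate 2 or 3 or p53-/- scrambled replicate 2 was left out, and likewise with mitochondrial transcripts left out, no filter or a replicate block. The ligand gene TGFB1 rose with 35.2 ± 0.635 against 19.9 ± 0.288 FPKM in p53-/- cells and 40.1 ± 3.43 against 20.1 ± 1.19 FPKM in p53+/+ cells, the integrin gene ITGB5 rose by 0.59, and SPARC, a matrix protein at low level, had 4.18 against 2.06 FPKM in p53-/- cells and 1.57 against 0.129 FPKM in p53+/+ cells. Of 14 WNT target genes, 8 rose, 4 fell and 2 did not pass (median 0.22). After AXIN2, CCND1, cyclin D1, rose with 180.1 ± 3.83 against 110.2 ± 2.10 FPKM in p53-/- cells and 167 ± 3.37 against 85.9 ± 3.36 FPKM in p53+/+ cells, and ZNRF3 and NKD1, both WNT inhibitors, rose by 0.63 and 0.94.

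Chromatin enzymes showed no shared direction. Of 28 JmjC oxygenases and arginine methyltransferases, 10 rose, 9 fell and 9 did not pass. Besides RIOX2 and RIOX1, KDM5B, a demethylase of histone H3 lysine 4, rose by 0.86 with 9.05 against 4.58 FPKM in p53-/- cells and 15.7 against 8.04 FPKM in p53+/+ cells, and KDM6B, a demethylase of lysine 27, rose by 1.08 with 24.2 against 9.12 FPKM in p53-/- cells and 19.1 against 10.1 FPKM in p53+/+ cells. KDM5C, a relative of KDM5B, fell by 0.46. Of 14 histone genes, 5 rose, 7 fell and 2 did not pass, and transcripts of replication-dependent histones mostly lack a poly(A) tail. H3-3B, which encodes the replacement histone H3.3, fell by 0.81 with 143 against 243 FPKM in p53-/- cells and 114 against 209 FPKM in p53+/+ cells, and H2BC12 rose by 1.13 with 31.1 against 15.2 FPKM in p53-/- cells and 69.3 against 28.3 FPKM in p53+/+ cells. H2AZ1, a histone H2A variant, fell by 0.43 and H2BC5 rose by 0.75.

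**Figure D5:**
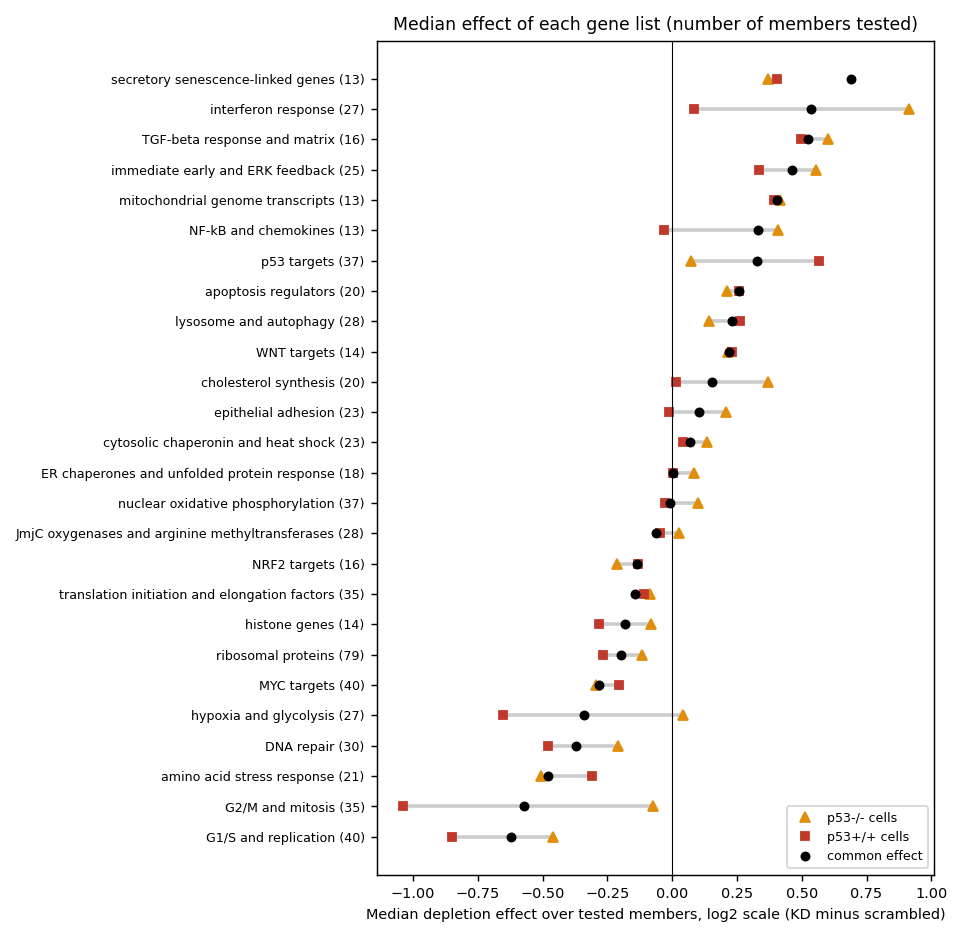
Median depletion effect on the log2(FPKM + 1) scale over the measured members of each gene list, for p53-/- cells, p53+/+ cells and the average of both, with a line at 0. G1/S, DNA repair and ribosomal protein lists lie below 0 in both, and p53 target, G2/M, hypoxia and interferon lists have line medians far apart.

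An average near 0 can hide opposite changes, and 509 genes (3.71% of those tested) were called in both lines in opposite directions. BHLHE40, a transcriptional repressor of the circadian and hypoxia responses, had 12.6 ± 0.0721 against 5.24 ± 0.0603 FPKM in p53-/- cells and 13.6 ± 0.767 against 20.6 ± 0.638 FPKM in p53+/+ cells, so that its effects were 1.12 in p53-/- and -0.56 in p53+/+ cells around an uncalled average of 0.28 (adjusted p = 0.334). MAFF, a small MAF transcription factor, had 12.1 against 5.29 FPKM in p53-/- cells and 3.73 against 4.55 FPKM in p53+/+ cells, with effects of 1.06 in p53-/- and -0.23 in p53+/+ cells and an uncalled average of 0.41. Its fall in p53+/+ cells passed by limma with the spread shared by all 4 groups (adjusted p = 0.0215) but not with p53+/+ libraries only. The mitochondrial tRNA gene TRNV had 109.8 ± 0.586 against 243 ± 16.0 FPKM in p53-/- cells and 71.1 ± 3.07 against 64.1 ± 3.88 FPKM in p53+/+ cells, an average of -0.49 (adjusted p = 0.0346), and VPS9D1-AS1, which overlaps VPS9D1 on the other strand, had 10.2 against 20.3 FPKM in p53-/- cells and 10.8 against 8.35 FPKM in p53+/+ cells, an uncalled average of -0.30. Mature tRNAs are not polyadenylated like messenger RNAs, and with no strand information in the sources used here reads of VPS9D1-AS1 and VPS9D1 cannot be told apart. When the average was taken over the 4 group means instead, 9386 genes were called, 972 of them not called with the line as a block, and the lines differed for 651 (67.0%) of those 972.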

How the data were processed

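Poly(A) RNA of 12 HCT116 libraries in 4 groups of 3 was compared. The authors deposited 1 table of 36615 gene symbols, with no unit in its header. The deposited values were taken as FPKM because they are not whole numbers, library totals differ, and ND4L and ND4, which differ in length but share a transcript, stood at a ratio of 0.970 to 1.06. The authors filtered reads before matching them to the human genome, per the series design text, and the submitters' processing notes name hg19 as the build. For the aligner, quantifier and annotation, nothing is given in the sources used here. No whole-read steps were found, so depth is unknown, no counting interval can be given, and the precision rests on 3 libraries per group.

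Groups and replicate numbers came from the sample titles. Values were tested as log2(FPKM + 1) with limma (version 3.58.1, R 4.3.3), letting the variance follow the mean, for the 13728 genes with at least 1 FPKM in at least 3 libraries. Changes of low genes are understated on this scale. The common effect came from an additive fit of depletion and line (9 residual degrees of freedom). Effects in each line and their difference came from a fit of group means (8 residual degrees of freedom). Benjamini-Hochberg adjustment ran over all genes tested in each comparison. The fits were checked on simulated data with the same depletion effect in both lines. That check does not cover genes whose effect differs between the lines. An effect was called evenly shared where the 95% interval of the difference lay within 0.25 of 0. Members and gene lists (31 lists with 791 entries, 777 of them table symbols, 2 found by older symbols, 1 a repeat and 11 unmatched) were chosen with earlier results of these data known. Lists are described by counts and medians beside those of all genes.

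Genes were named by rule. It takes fixed genes, RIOX2, RIOX1 and RPL27A among them; the 12 largest rises and falls by the common effect, with a highest group mean of 5 FPKM or more and no overlap between depleted and scrambled libraries in either line; the 5 largest further rises and falls that were evenly shared; the 2 largest rises and falls in p53-/- cells among genes called in opposite directions; and up to 4 called members of each list with the smallest p. Some genes that meet the rule are not reported here. MCM6, MCM3, KIF11 and BUB1B are shown for their promoter sequence, and markers below the filter for their level. Promoter sequences are from RefSeq (GRCh38.p14). The alternatives were scaling by trimmed means of log ratios, mitochondrial genes left out, a pseudocount of 0.1, no filter or a minimum of 5 FPKM, a replicate block, the average of group means, each line alone and each library left out.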

Additional observations from a re-analysis of the deposited data

Results flagged for a closer look

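For the genes given here the depletion effect differed between the lines by the limma test of that difference (p53-/- minus p53+/+, on the log2(FPKM + 1) scale, adjusted p of at most 0.05). On this scale, the average of each is over lines that responded by unequal amounts. The added 1 also shapes such differences where levels are low or unlike between the lines. As a ratio of mean FPKM, RASD1 rose 15.3-fold in p53-/- and 15.4-fold in p53+/+ cells. BTG2 rose 2.73-fold in p53-/- and 2.76-fold in p53+/+ cells. For RASD1 and BTG2 the ratios were thus nearly equal in the lines. SLC2A3 rose 8.18-fold in p53-/- and 5.76-fold in p53+/+ cells, TERC 4.99-fold and 6.47-fold, and PRF1 10.9-fold and 12.7-fold. The differences below are therefore not differences of log2 FPKM ratios.

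Among genes that rose, and rose more in p53-/- cells, the difference was 1.03 for SLC2A3, 0.85 for RASD1, 0.75 for IFI6, 0.72 for HSPB8, 0.60 for DUSP5 and 0.50 for TNFAIP2. It was 0.48 for ATF3, 0.46 for KDM6B, 0.42 for SQLE, 0.30 for AREG, 0.28 for MCL1 and 0.25 for NFKBIE. For SLC2A3 the effects were 2.36 in p53-/- and 1.33 in p53+/+ cells (adjusted p of the difference 2.01e-05).

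Among genes that rose, and rose less in p53-/- cells, the difference was -1.13 for MIR3189, -0.99 for TERC, -0.75 for BIK, -0.60 for GDF15, -0.58 for PRF1 and -0.54 for OSGIN1. It was -0.53 for CDKN1A, -0.43 for SPARC, -0.38 for SQSTM1, -0.30 for AQP3, -0.27 for H2BC12 and -0.25 for JUN. After these came -0.25 for CCND1, -0.24 for BTG2, -0.24 for TIMP2, -0.24 for NKD1, -0.23 for TNFRSF10A and -0.16 for DSP. Further values were -0.11 for CYTB. For MIR3189 the effects were 1.78 in p53-/- and 2.91 in p53+/+ cells (adjusted p of the difference 0.00547).

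Among genes that fell, and fell more deeply in p53-/- cells, the difference was -0.71 for CYB5R3, -0.63 for SLC9A3R2, -0.56 for ATP5MC2, -0.55 for RIOX2, -0.45 for HSPD1 and -0.45 for ANXA2. It was -0.43 for ANXA2P2, -0.40 for HYOU1, -0.33 for KRT18, -0.31 for PAX2, -0.29 for MTHFD2 and -0.24 for PTMA. After these came -0.23 for EIF4H, -0.19 for NCL, -0.17 for UNG and -0.15 for EIF3G. For CYB5R3 the effects were -2.78 in p53-/- and -2.08 in p53+/+ cells (adjusted p of the difference 3.89e-05).

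Among genes that fell, and fell less in p53-/- cells, the difference was 0.90 for HK2, 0.86 for TTK, 0.69 for PTMAP4, 0.65 for CDC20, 0.64 for BIRC5 and 0.57 for TPI1. It was 0.56 for CCNB1, 0.43 for FOSL1, 0.40 for RAD54L, 0.35 for MCM2, 0.32 for VEGFA and 0.27 for STC2. After these came 0.25 for BRCA1, 0.23 for RRM2, 0.21 for APEX1, 0.20 for RPL7A, 0.20 for CDH1 and 0.20 for H2AZ1. Further values were 0.19 for EIF3A and 0.11 for H3-3B. For HK2 the effects were -0.56 in p53-/- and -1.46 in p53+/+ cells (adjusted p of the difference 7.85e-06).

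In genes whose effects had opposite signs in the lines, the difference was -1.28 for TRNV, -1.27 for VPS9D1-AS1, 1.29 for MAFF and 1.69 for BHLHE40.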

How the results depend on the processing

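The counts of called genes stayed within 1.5 times of those reported under every alternative run. The common depletion effect gave 7935 to 8263 calls when 1 library was left out, with 3766 to 3932 higher and 4066 to 4340 lower, and the difference between the lines gave 3805 to 4428. With mitochondrial genes left out, 57.1% of calls were higher, against 48.1%. No gene was called in opposite directions by the reported fit and an alternative that kept both lines. With p53+/+ libraries only, the average reversed for genes chosen for opposite effects, at -0.56 for BHLHE40, 0.15 for TRNV and 0.34 for VPS9D1-AS1. For MAFF it also changed sign, to -0.23, but MAFF was called neither there nor in the reported fit. The difference between the lines for NKD1, a low gene, was 0.091 with a pseudocount of 0.1 against -0.24. The mitochondrial share differed by 3.63 points in p53-/- and by 4.52 points in p53+/+ libraries alone, each with an exact permutation p of 0.1, the smallest that 3 against 3 libraries allow, and by 3.91 to 4.27 points with 1 library left out. The cause of the other changes was not tested.

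Replicate numbers are shared by the groups, but deviations of same-numbered libraries correlated between -0.227 and 0.156 over 18 pairs (median -0.0126, against 0.0127 for other pairs), so no pairing by number was visible. Deviations from means of 3 libraries cannot exclude shared cultures or batches. With a replicate block 3817 genes were higher and 4139 lower, against 4045 and 4369 without it, and the difference between the lines gave 2085 higher and 2054 lower. Of 134 named genes described, 127 kept their call for the common effect under every alternative, the others being BHLHE40, KRT8, MAFF, PAX2, PAX8, TRNV and VPS9D1-AS1. With a minimum of 5 FPKM, which tests fewer genes, 7 TGF-beta and 5 WNT genes were higher and 1 apoptosis gene was lower. Depth limits low genes in a way that cannot be stated without counts.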

Other observations

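Of 20 cholesterol synthesis genes, 10 rose, 2 fell and 8 did not pass by the common effect (median 0.15, with 0.37 in p53-/- and 0.01 in p53+/+ cells), and 6 fell with the average of group means. DHCR7, a late enzyme of the pathway, averaged 42.2 ± 2.05 against 28.5 ± 0.746 FPKM in p53-/- cells and 45.7 ± 3.69 against 31.6 ± 1.41 FPKM in p53+/+ cells (SD, n = 3 per group), and its rise of 0.53 was evenly shared. HMGCS1, which makes the precursor HMG-CoA, LSS, which closes the sterol ring, and SQLE, which forms squalene epoxide, rose by 0.48, 0.57 and 0.52. Of 16 NRF2 target genes, 4 rose, 7 fell and 5 did not pass. PGD and TKT, of the pentose phosphate pathway, fell with 37.0 against 84.6 FPKM in p53-/- cells and 37.0 against 78.9 FPKM in p53+/+ cells for PGD and 77.1 against 151 FPKM in p53-/- cells and 101 against 179 FPKM in p53+/+ cells for TKT, whereas ME1, malic enzyme, rose by 0.61 and OSGIN1, an oxidative stress gene, by 1.43 with 17.2 against 7.10 FPKM in p53-/- cells and 13.5 against 3.45 FPKM in p53+/+ cells. Of 18 genes of ER chaperones and the unfolded protein response, 7 rose, 5 fell and 6 did not pass, and 4 rose without p53-/- depleted replicate 1, p53-/- scrambled replicate 2 or p53-/- scrambled replicate 3, and likewise with scaling by trimmed means, no filter or a replicate block. HYOU1, an ER chaperone, fell by 1.23 with 16.0 against 44.7 FPKM in p53-/- cells and 22.2 against 46.3 FPKM in p53+/+ cells, and XBP1, a transcription factor of that response, by 0.87. HSPA5, the main ER chaperone, rose by 0.44 with 230.1 against 167 FPKM in p53-/- cells and 154 against 115 FPKM in p53+/+ cells, and SEC61B, of the translocon, by 0.30.

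Of 23 epithelial adhesion genes, 10 rose, 7 fell and 6 did not pass. CLDN4, a tight junction claudin, rose with 137 ± 7.13 against 73.3 ± 3.28 FPKM in p53-/- cells and 127 ± 4.48 against 61.1 ± 1.63 FPKM in p53+/+ cells, CTNNA1, alpha-catenin, and DSP, desmoplakin, rose by 0.51 and 0.57, and CDH1, E-cadherin, fell by 0.75 with 5.39 against 9.004 FPKM in p53-/- cells and 10.5 against 19.7 FPKM in p53+/+ cells. Of 13 secretory genes linked to senescence, 8 rose, 3 fell and 2 did not pass (median 0.69, and -0.01 when genes with low values were kept, with 5 lower). AREG, a ligand of the EGF receptor, rose by 0.92 with 93.1 ± 1.19 against 44.0 ± 2.43 FPKM in p53-/- cells and 331 ± 2.89 against 194 ± 3.89 FPKM in p53+/+ cells, and TIMP2, an inhibitor of matrix proteases, by 0.69.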
